A study of Mus musculus with 18 samples.

Results

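The genes examined here were 41 genes that respond to type I interferon, the antiviral cytokine family of interferon alpha and beta. They were given as a list of gene names, and 41 of the 22107 mouse genes measured were therefore followed: the receptor chains, RNA sensors, the OAS, IFIT, Mx, PARP and Schlafen families, the ISG15 system and other antiviral effectors. The measure was the dimethylation of lysine 79 of histone H3 (H3K79me2) over each gene, read from chromatin immunoprecipitation and sequencing of mouse CD4 T cells. There were 3 groups of 3 libraries. For Th2 cells, enriched CD4 T cells were stimulated for 4 days with plate-bound anti-CD3 plus anti-CD28 in the presence of IL-4, anti-IFNg and IL-2, and were sorted for IL-4 AmCyan or IL-13 dsRed, from mice that carry both reporters (4C13R). Th1 cells had the same culture time and stimulation with IL-12, anti-IL-4 and IL-2, and were sorted for YFP from IFNg-YFP reporter mice. Naive cells were sorted without culture from WT mice as CD44- CD62L+ cells. All samples were labelled WT in genotype, and neither the age nor the number of animals was given. Culture, reporter strain and cell type changed together between polarised and naive cells and cannot be told apart. Only the polarised groups were sorted on a cytokine reporter. Between Th2 and Th1 cells, the reporter strain, the sorted reporter and the cytokines and antibodies of the culture also changed with cell type. These cannot be told apart either. Whether each library had its own animals was not stated, and p-values therefore cover the library-to-library spread alone, part or all of which may be technical.

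Type I interferons bind a receptor made of the chains IFNAR1 and IFNAR2. The kinases JAK1 and TYK2 on that receptor activate a complex of transcription factors that includes STAT2 and IRF9 and binds the interferon-stimulated response element (ISRE) in the promoters of the responding genes. These genes encode sensors of foreign RNA and proteins that block viral replication, and resting lymphocytes are known to keep many of them transcribed at a low level through constant weak interferon signalling. H3K79me2 is set by DOT1L on nucleosomes of transcribed genes and usually forms a domain that is strongest near the 5′ end. In cells taken as a pool, a mark in fewer cells and a weaker mark per cell cannot be told apart.

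Peaks of H3K79me2 covered less of these genes in Th2 and in Th1 cells than in naive cells. Of the 36 genes that could be tested, 16 were called lower in Th2 and 12 in Th1. Of all 11600 genes tested, 15.4% were called lower in Th2 and 16.3% in Th1. Most OAS genes, Ifit1, Slfn5, Rnf213 and the sensor gene Ddx58 were among the listed genes called, and Bst2 was not. The value of a gene is the percent of its annotated body that lies under the merged peaks of a library. Over the 41 genes its median was 31.9 ± 4.69% in Th2, 43.1 ± 3.28% in Th1 and 71.3 ± 2.89% in naive cells (SD, n = 3 libraries each). At least 1 peak touched 33 to 35 of the genes in Th2 libraries, 30 to 32 in Th1 libraries and 39 in each naive library. More than 50% of the body was covered for 17 to 19 genes in Th2, 19 to 20 in Th1 and 27 to 30 in naive libraries. The ranges of both polarised groups lay below that of naive cells on each of these counts. The counts were not set beside all genes, and naive libraries had more of the genome under peaks.

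**Figure D1:**
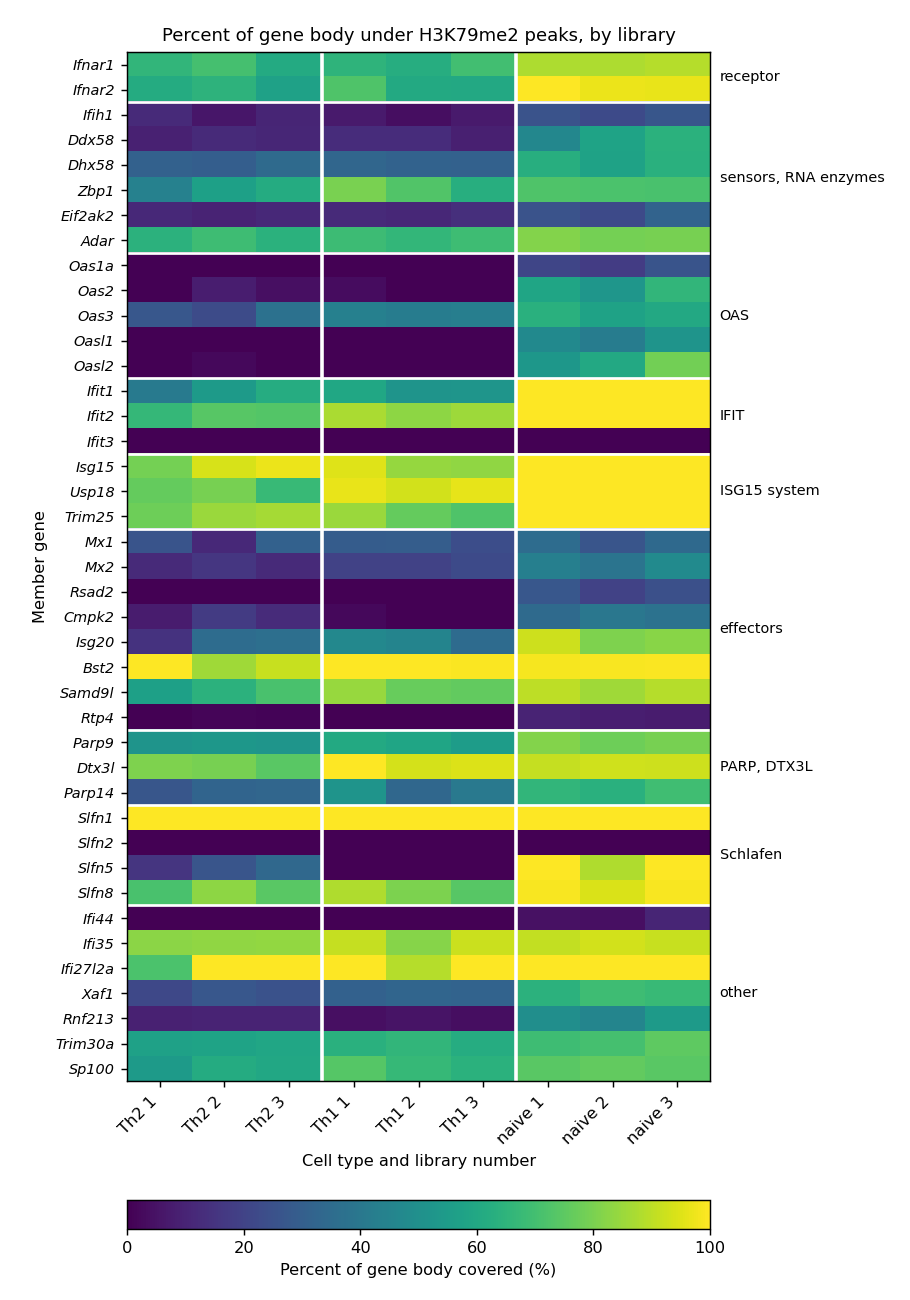
Percent of the gene body under H3K79me2 peaks (colour, 0 to 100%) for the 41 genes (rows, grouped by role) in each of the 9 libraries (columns: Th2, Th1, naive). Most rows hold lower values in the 6 polarised libraries than in the 3 naive ones, while Slfn1 is at 100% and Ifit3 and Slfn2 are at 0 in every library.

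Across all genes a fit with limma compared the groups, and a call needed both a p under 0.05 after Benjamini-Hochberg adjustment and a minimum difference of 25 percentage points. Of the 41 genes, 36 could be tested. Ifit3, Slfn2 and Slfn1 had the same value in every library, and Mx1 and Mx2 are annotated as transcribed pseudogenes in the reference genome and were left out of the genes tested. In Th2 against naive cells 16 genes were called lower and 0 higher, where 15.4% of the 11600 genes tested were called lower and 4.26% higher. In Th1 against naive cells 12 were called lower and 0 higher, where 16.3% of all genes tested were called lower and 4.38% higher. No gene of the list was called higher by limma, although the unadjusted p was under 0.05, in either direction, for 33 genes in Th2 and 30 in Th1. Among all 11600 genes tested it was under 0.05 for 7415 in Th2 and 7395 in Th1. With libraries centred on the same mean, 11 genes were called lower in each comparison, where 9.64% of all genes tested were called lower in Th2 and 10.1% in Th1. The 2 comparisons share the naive libraries. Ifnar2, Ddx58, Dhx58, Oas2, Oasl1, Oasl2, Ifit1, Isg20, Slfn5, Xaf1 and Rnf213 were called lower in both, Oas3, Ifit2, Usp18, Parp9 and Parp14 in Th2 only, and Cmpk2 in Th1 only. Calls in 1 comparison alone do not show that Th2 and Th1 differed at those 6 genes, and the direct comparison of Th2 with Th1 called Slfn5 alone.

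A gene can be called lower only if its naive level is at least 25%. Of genes with that level in naive cells, 21.2% were called lower in Th2 and 22.6% in Th1. The list held 31 such genes among those tested, of which 16 (51.6%) were called lower in Th2 and 12 (38.7%) in Th1. Oas1a, Oasl1, Rsad2 and Ifi44 had peaks in naive libraries only. Genes with the same value in every library were not tested, so these 4 entered through their naive libraries alone and a difference was built into their entry. Of the 36 genes tested, all 3 Th2 libraries lay below all 3 naive libraries for 34, where 53.1% of all genes tested did so, and above them for 0, against 14.7% of all genes tested. All 3 Th1 libraries lay below all naive ones for 31, against 52.4% of all genes tested, and above them for 2, against 14.2%. The median difference of the genes tested was -23.8 points in Th2 and -20.1 points in Th1, and over all genes -5.50 and -5.54 points.

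Peaks covered less of the genome in polarised cells: 232 to 250 Mb in Th2, 217 to 240 Mb in Th1 and 276 to 285 Mb in naive libraries, with 45894 to 51854, 41504 to 46085 and 38026 to 40455 peaks. Of all called genes 78.3% were lower in Th2 and 78.9% in Th1, against 60.2% and 61.5% with libraries centred and 59.2% and 55.8% at matched covered length, where each library kept its best peaks up to the least covered length of any library. At matched covered length 18 listed genes were called lower in Th2 and 12 in Th1, where 10.2% and 9.57% of all genes tested were. Not all 41 listed genes could be tested there, and Oasl2 was at 0 in every library. The medians of the listed genes tested were -26.5 and -12.8 points, against -1.92 and -1.32 points over all genes. T lineage markers were marked in every group, with a summed percent over 10 genes of 955 to 959 in Th2, 971 to 980 in Th1 and 966 to 985 in naive libraries. The CD8 T cell genes Cd8a and Cd8b1 summed to 24.8 to 39.2 in Th2, 7.55 to 11.9 in Th1 and 200 in naive libraries, lower in the same groups as the interferon genes. For 5 plasmacytoid dendritic cell markers sums were 48.5 to 59.5 in Th2, 71.8 to 80.3 in Th1 and 97.3 to 102 in naive libraries. Siglech, Klk1 and Spib were at 0 in every library, and Pacsin1 made up most of each sum. The sums of 5 B cell markers were 100 in Th2, 100 in Th1 and 136 to 184 in naive libraries. Ms4a1, Pax5 and Blk were at 0 everywhere, Cd79a was at 100% everywhere and Cd79b was marked in naive libraries only. Of 5 myeloid markers only Itgam was marked, with sums of 0 in Th2, 1.35 to 1.51 in Th1 and 7.22 to 10.5 in naive libraries. Of 4 NK cell markers Ncr1 and Klra8 were at 0, and Tyrobp made up all or nearly all of each sum. These sums were 78.95 to 100 in Th2, 39.8 to 55.4 in Th1 and 100 in naive libraries. The part of cells carrying these marker genes in the results was not tested.

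The promoters below are shown because H3K79me2 over them separated the groups for some genes and not for others, and each of them holds the ISRE core. They run from 250 bases before to 50 bases after a transcript start in RefSeq (build GRCm38.p6) and are written 5′ to 3′ on the strand of the gene, with matches to the core in capitals. The core is GAAA, then 2 bases of any kind, then GAAA, and on the other strand TTTC, 2 bases and TTTC. Ifit1 (chr19:34640639-34640938, plus strand), Ddx58 (chr4:40239776-40240075, minus strand) and Slfn5 (chr11:82951852-82952151, plus strand) were called lower in both polarised groups. Isg15 (chr4:156200769-156201068, minus strand) and Bst2 (chr8:71537423-71537722, minus strand) were called in neither, and Ifit3 (chr19:34583279-34583578, plus strand) had no peak.
Ifit1: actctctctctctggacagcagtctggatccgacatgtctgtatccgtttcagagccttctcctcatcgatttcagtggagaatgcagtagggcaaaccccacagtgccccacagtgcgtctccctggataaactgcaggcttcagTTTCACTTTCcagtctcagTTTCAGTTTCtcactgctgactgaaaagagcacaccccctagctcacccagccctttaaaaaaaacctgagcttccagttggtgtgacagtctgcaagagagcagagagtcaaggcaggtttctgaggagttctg
Ddx58: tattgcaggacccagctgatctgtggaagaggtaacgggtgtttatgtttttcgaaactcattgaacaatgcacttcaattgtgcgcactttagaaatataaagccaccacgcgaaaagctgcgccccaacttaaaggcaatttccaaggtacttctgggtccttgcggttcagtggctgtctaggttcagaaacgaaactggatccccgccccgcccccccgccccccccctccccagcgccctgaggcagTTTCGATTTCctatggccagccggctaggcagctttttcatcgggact
Slfn5: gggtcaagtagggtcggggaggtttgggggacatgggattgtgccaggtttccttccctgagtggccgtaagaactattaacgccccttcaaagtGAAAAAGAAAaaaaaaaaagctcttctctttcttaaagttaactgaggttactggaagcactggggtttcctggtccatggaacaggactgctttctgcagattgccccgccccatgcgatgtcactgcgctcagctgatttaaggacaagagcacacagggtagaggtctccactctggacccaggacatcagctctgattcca
Isg15: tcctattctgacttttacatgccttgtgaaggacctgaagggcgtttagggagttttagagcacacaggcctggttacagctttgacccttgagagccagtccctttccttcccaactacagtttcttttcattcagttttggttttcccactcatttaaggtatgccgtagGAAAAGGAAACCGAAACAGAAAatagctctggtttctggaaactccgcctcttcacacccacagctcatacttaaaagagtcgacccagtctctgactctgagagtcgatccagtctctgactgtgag
Bst2: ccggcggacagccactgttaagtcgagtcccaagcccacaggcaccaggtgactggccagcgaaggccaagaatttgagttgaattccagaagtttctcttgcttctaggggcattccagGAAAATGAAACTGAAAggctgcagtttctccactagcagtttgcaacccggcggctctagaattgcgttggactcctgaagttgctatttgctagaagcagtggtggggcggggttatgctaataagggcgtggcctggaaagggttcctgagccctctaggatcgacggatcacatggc
Ifit3: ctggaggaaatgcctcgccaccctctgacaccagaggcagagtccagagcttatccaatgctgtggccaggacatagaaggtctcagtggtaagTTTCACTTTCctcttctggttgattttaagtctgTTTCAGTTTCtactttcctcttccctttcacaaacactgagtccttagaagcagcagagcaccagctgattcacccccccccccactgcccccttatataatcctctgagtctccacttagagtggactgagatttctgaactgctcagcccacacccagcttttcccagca
Of the Ddx58 window, 0, 0 and 4% in the Th2 libraries, 0% in each Th1 library and 100% in each naive library lay under a peak. The Isg15 window gave 0, 0 and 3.33% in the Th2 libraries, 0% in each Th1 library and 100% in each naive library. For Ddx58 and Isg15 the naive libraries thus had the whole window under a peak and the polarised ones almost none of it. The Slfn5 window gave 0, 100 and 0% in the Th2 libraries, 0% in each Th1 library and 100% in each naive library, and the Ifit1 window 0, 100 and 100% in the Th2 libraries, 100% in each Th1 library and 100% in each naive library. The Bst2 window was wholly covered and the Ifit3 window wholly uncovered in all 9 libraries. The Ifit3 window holds matches whose first bases lie at -156 and -122 relative to the start.

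The core was found in the windows of 13 of the 31 listed genes with an entry in the table (41.9%), against 3.99% of all 27025 genes there. The core of the gamma-activated site, TTCNNNGAA, which reads the same on both strands, was found for 9 of 31 (29.03%), against 9.55% of all genes. Bst2, Eif2ak2 and Oas1a had both, and the matches overlapped only in Bst2. Of the 13 genes with the ISRE core 12 could be tested, and 4 of them were called lower in Th2 and 3 in Th1. Of the 18 without it 16 could be tested, and 7 were called lower in each comparison. Over all genes tested 15.4% were called lower in Th2 and 16.3% in Th1. A match describes letters in the window and not binding. Several families hold close copies, such as Ifit3 and Ifit3b or Slfn8 and Slfn9. How reads that match several copies were placed is not given in the sources used here, so low values in such genes are uncertain.

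Of the genes for the receptor chains, Ifnar2 was called lower in both polarised groups and Ifnar1 in neither. Ifnar2 had 61.6, 64.8 and 57.03% in the Th2 libraries, 72.3, 60.9 and 60.3% in the Th1 libraries and 100, 97.1 and 96.7% in the naive libraries. No polarised library of Ifnar2 reached the lowest naive one, and the differences from naive cells were -36.8 points (SE 3.52, adjusted p = 6.81e-05) in Th2 and -33.4 points (SE 3.52, adjusted p = 0.000108) in Th1. Ifnar1 had 65.8, 70.6 and 61.3% in the Th2 libraries, 64.9, 62.4 and 69.7% in the Th1 libraries and 87.8, 87.6 and 88.8% in the naive libraries, again without overlap, and its differences of -22.2 points in Th2 and -22.4 points in Th1 fell short of the 25-point minimum. At matched covered length Ifnar1 was called lower in both, with differences of -26.5 points in Th2 and -25.2 points in Th1. The differences of Ifnar2 were -57.3 and -50.9 points when peaks were limited to a −log10 q of at least 5 by the authors' peak caller.

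Of 6 genes for sensors of foreign nucleic acid and their effectors, Ddx58 and Dhx58 were called lower in both polarised groups. Among all genes tested, 15.4% were called lower in Th2 and 16.3% in Th1. Ddx58 encodes RIG-I, which binds short viral RNA with a 5′ triphosphate, and lies on chromosome 4, 40203777 to 40239825 (mm10). It was covered to 9.32, 11.9 and 10.6% in the Th2 libraries, 12.8, 12.8 and 8.76% in the Th1 libraries and 46.2, 57.9 and 63.8% in the naive libraries. The differences from naive cells were -45.4 points (SE 4.04, adjusted p = 4.74e-05) in Th2 and -44.5 points (SE 4.04, adjusted p = 4.86e-05) in Th1, and at matched covered length -30.2 and -26.8 points. Dhx58 encodes LGP2, a relative of RIG-I without its signalling domains, and was covered to 30.9, 30.1 and 34.6% in the Th2 libraries, 33.2, 31.4 and 30.9% in the Th1 libraries and 62.7, 57.7 and 63.5% in the naive libraries. For both sensors the polarised libraries stood close together and well below the naive ones. The Dhx58 differences were -29.4 points (SE 2.10, adjusted p = 1.58e-05) in Th2 and -29.4 points (SE 2.10, adjusted p = 1.37e-05) in Th1, and with libraries centred they were -21.7 and -21.2 points, short of the minimum. They were -51.3 and -61.3 points with peaks of a −log10 q of at least 5. In each naive library 1 peak covered that part of Dhx58, and this peak measured 48.01 ± 0.164 kb, far longer than the gene, so it also covered bases outside it.

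The other 4 genes of this group were not called. Ifih1, which encodes the sensor of long double-stranded RNA MDA5, averaged 9.51 ± 2.99% in Th2, 6.06 ± 2.15% in Th1 and 24.9 ± 2.30% in naive cells (SD, n = 3). Eif2ak2, the RNA-activated kinase PKR that halts translation, averaged 10.9 ± 0.927% in Th2, 12.1 ± 1.20% in Th1 and 26.7 ± 4.91% in naive cells. Adar, which edits adenosine to inosine in double-stranded RNA, averaged 65.6 ± 2.76% in Th2, 67.9 ± 1.56% in Th1 and 79.9 ± 1.21% in naive cells. These 3 genes had every polarised library below every naive one and missed the 25-point minimum. Eif2ak2 and Adar overlap the annotated genes Gm26637 and Chrnb2, so their values are less certain. Zbp1, a sensor of Z-form nucleic acid, had 43.8, 56.9 and 61.4% in the Th2 libraries, 80.05, 73.02 and 62.8% in the Th1 libraries and 72.6, 71.7 and 71.4% in the naive libraries. Its Th1 libraries overlapped the naive ones and its Th2 libraries did not, and the difference of Th2 from naive cells was -17.8 points (SE 5.44, adjusted p = 0.0231).

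Of 5 OAS genes, 4 were called lower in Th2 and 3 in Th1, against 15.4% and 16.3% of all genes tested. Oas1a, Oas2 and Oas3 encode synthetases of 2′-5′-linked oligoadenylate, which activates RNase L, and Oasl1 and Oasl2 are related proteins. Oasl1 (chromosome 5, 114923143 to 114937911) had 0% in every Th2 and Th1 library, against 47.4, 42.1 and 51.6% in the naive libraries. Oasl2, beside it, had 0, 1.96 and 0% in the Th2 libraries, 0% in each Th1 library and 52.97, 60.3 and 78.8% in the naive libraries. Only 1 polarised library had any peak on either Oasl gene, and all naive libraries had peaks on both. Oasl1 entered the genes tested through its naive libraries alone, so a difference was built into its entry and its p. The differences of Oasl1 were -47.03 points (SE 2.09, adjusted p = 1.39e-06) in Th2 and -47.03 points (SE 2.09, adjusted p = 1.23e-06) in Th1, and those of Oasl2 were -63.4 points (SE 5.71, adjusted p = 5.00e-05) in Th2 and -64.03 points (SE 5.71, adjusted p = 4.42e-05) in Th1. With peaks limited to a −log10 q of at least 5, Oasl2 was at 0 in all 9 libraries, so none of its naive peaks reached that limit. Over the first 5 kb from the start the Oasl1 differences were -93.3 and -93.3 points. The SE pools the spread of all groups, and for Oasl2 the SD was 13.3 points in naive, 1.13 in Th2 and 0 in Th1 libraries.

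Oas2 had 0, 7.81 and 4.01% in the Th2 libraries, 3.49, 0 and 0% in the Th1 libraries and 58.8, 52.4 and 65.7% in the naive libraries. Its differences were -55.04 points (SE 3.45, adjusted p = 7.96e-06) in Th2 and -57.8 points (SE 3.45, adjusted p = 5.47e-06) in Th1. Oas1a had 0% in every Th2 and Th1 library, against 21.03, 17.6 and 25.9% in the naive libraries. All naive libraries were marked over Oas1a and no polarised one was, but the difference of -21.5 points was short of the minimum. Oas3 was covered in part in every library, with 27.03, 22.96 and 37.3% in the Th2 libraries, 43.6, 42.1 and 42.9% in the Th1 libraries and 63.3, 57.6 and 60.3% in the naive libraries. The Oas3 libraries fell into 3 separate ranges, lowest in Th2, and the differences were -31.3 points (SE 3.58, adjusted p = 0.000176) in Th2 and -17.5 points (SE 3.58, adjusted p = 0.00360) in Th1. A call was reached in Th2 only, and with libraries centred that difference was -23.6 points. In 2 naive libraries a single peak touched both Oas2 and Oas3, so these neighbours are not independent there.

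The IFIT genes bind foreign RNA and inhibit its translation. Of the 2 that could be tested, both were called lower in Th2 and Ifit1 alone in Th1. The shares of all genes tested were 15.4% and 16.3%. Ifit1 (chromosome 19, 34640889 to 34650009) had 41.05, 54.6 and 61.9% in the Th2 libraries, 59.5, 51.7 and 52.3% in the Th1 libraries and 100% in each naive library. It was fully covered in naive cells, the libraries of the 2 polarised groups overlapped each other below that, and the differences were -47.5 points (SE 4.95, adjusted p = 0.000106) in Th2 and -45.5 points (SE 4.95, adjusted p = 0.000129) in Th1. In the first 5 kb from the start the differences were -19.4 and -15.5 points (adjusted p = 0.231 and 0.342), which were not called. They were -100 and -100 points with peaks of a −log10 q of at least 5. Ifit1 lies inside the annotated Ifit1bl1. Ifit2 had 66.6, 74.05 and 73.1% in the Th2 libraries, 87.3, 82.9 and 85.2% in the Th1 libraries and 100% in each naive library. The groups of Ifit2 did not overlap, and the differences were -28.7 points (SE 2.07, adjusted p = 1.65e-05) in Th2 and -14.9 points (SE 2.07, adjusted p = 0.000495) in Th1. The longest peak touching Ifit2 measured 8.32 ± 1.36 kb in Th2, 12.3 ± 2.40 kb in Th1 and 33.4 ± 0.552 kb in naive cells, and the longest touching Ifit1 4.51 ± 2.84 kb in Th2, 4.99 ± 0.360 kb in Th1 and 26.5 ± 3.42 kb in naive cells. With peaks at most 1000 bases apart joined, Ifit2 differed by -21.7 points in Th2 and was not called, nor was it over the first 5 kb (-4.49 points) or with libraries centred (-21.1 points). With peaks of a −log10 q of at least 5 the Th2 difference was -60.9 points. Ifit3, between them, had no peak in any library.

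Of the 3 genes of the ISG15 system, Usp18 was called lower in Th2 and none was called in Th1. Among all genes tested the shares called lower were 15.4% and 16.3%. Isg15 encodes a ubiquitin-like protein, Usp18 removes it from its targets and also restrains signalling at IFNAR2, and Trim25 is a ubiquitin ligase that acts on RIG-I. Isg15 had 78.996, 93.9 and 97.1% in the Th2 libraries, 95.1, 84.2 and 83.5% in the Th1 libraries and 100% in each naive library, and the differences of -9.99 points (SE 4.98, adjusted p = 0.122) in Th2 and -12.4 points (SE 4.98, adjusted p = 0.0643) in Th1 did not pass the test. The gene is only 1.395 kb long, and its peak measured 2.21 ± 0.450 kb in Th2, 2.34 ± 0.428 kb in Th1 and 17.4 ± 2.45 kb in naive cells, so the percent of the body does not show the difference in width. With peaks of a −log10 q of at least 5, Isg15 was called lower in Th2, with a difference of -100 points, and not in Th1, with -12.4 points. Usp18 had 76.5, 79.5 and 67.2% in the Th2 libraries, 96.7, 93.03 and 96.2% in the Th1 libraries and 100% in each naive library. Its Th2 libraries lay below all Th1 libraries, which lay below the naive ones, and the differences from naive cells were -25.6 points (SE 2.91, adjusted p = 0.000172) in Th2 and -4.70 points (SE 2.91, adjusted p = 0.204) in Th1. The Th2 call was lost when the third Th2 library was left out (-21.97 points), with peaks at most 1000 bases apart joined (-22.4 points) and with libraries centred (-17.9 points), and with peaks of a −log10 q of at least 5 the difference was -40.9 points. Trim25 averaged 83.3 ± 4.54% in Th2, 77.9 ± 6.52% in Th1 and 100% in naive cells and was not called in either comparison. It was called lower in both with peaks of a −log10 q of at least 5, with differences of -40.4 points in Th2 and -41.1 points in Th1, and at matched covered length, with -34.1 and -31.6 points.

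**Figure D2:**
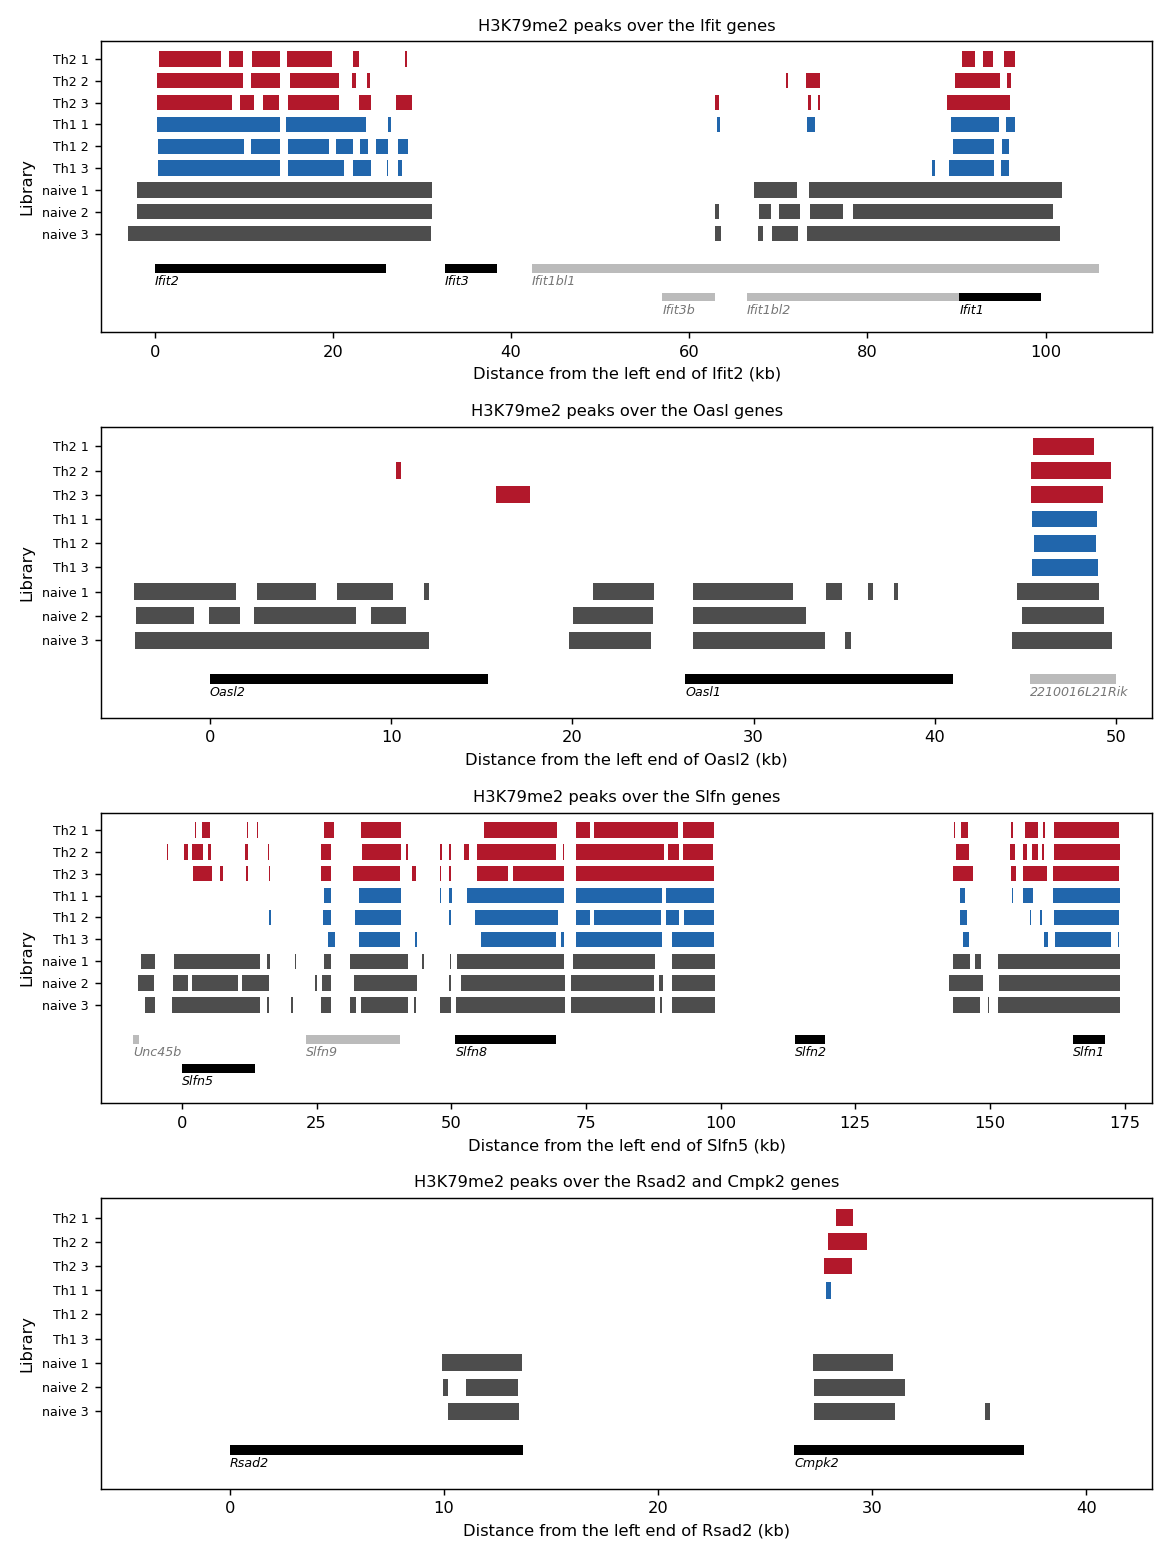
H3K79me2 peaks (bars) in the 9 libraries over the Ifit, Oasl, Slfn, and Rsad2 and Cmpk2 genes, by distance in kb from the left end of the first gene named; black bars are listed genes and grey bars other genes. Naive libraries have long peaks over Ifit2, Ifit1, Oasl2, Oasl1 and Slfn5 where polarised libraries have short ones or none, while Slfn8 and Slfn1 are covered in all 9.

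Of 6 testable genes for other antiviral effectors, Isg20 was called lower in both polarised groups and Cmpk2 in Th1. These were 1 call in Th2 and 2 in Th1, against 15.4% and 16.3% of all genes tested. With so few genes, the counts say little about this group as such. Rsad2 and Cmpk2 lie side by side. Rsad2 encodes viperin, which makes a chain-terminating nucleotide, and Cmpk2 a mitochondrial nucleotide kinase. Rsad2 had 0% in every Th2 and Th1 library, against 27.1, 19.6 and 24.3% in the naive libraries. Cmpk2 had 7.55, 17.3 and 12.2% in the Th2 libraries, 2.21, 0 and 0% in the Th1 libraries and 34.7, 39.6 and 37.6% in the naive libraries. Both genes were marked in all naive libraries, Rsad2 in no polarised one, and Cmpk2 in every Th2 library and 1 Th1 library. The Cmpk2 differences were -24.98 points (SE 2.44, adjusted p = 7.56e-05) in Th2 and -36.6 points (SE 2.44, adjusted p = 9.69e-06) in Th1, so the Th2 value stood just outside the minimum, as that of Usp18 stood just inside it. Isg20, an RNA exonuclease, had 14.5, 35.4 and 36.4% in the Th2 libraries, 46.8, 45.2 and 34.8% in the Th1 libraries and 92.3, 80.8 and 82.4% in the naive libraries. All polarised libraries of Isg20 lay below the naive ones, with differences of -56.4 points (SE 6.59, adjusted p = 0.000196) in Th2 and -42.9 points (SE 6.59, adjusted p = 0.000819) in Th1. With peaks of a −log10 q of at least 5 the difference of Isg20 was -85.2 points in each polarised group, and over the first 5 kb that of Cmpk2 in Th1 was -76.5 points.

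Bst2, which encodes the tetherin that holds budding virus on the cell, had 100, 85.9 and 91.8% in the Th2 libraries, 99.9, 100 and 99.6% in the Th1 libraries and 98.6, 99.1 and 99.4% in the naive libraries. Its groups overlapped between Th2 and naive cells and neither difference was called, with -6.51 points (SE 3.06, adjusted p = 0.103) in Th2 and 0.767 points (SE 3.06, adjusted p = 0.871) in Th1. Samd9l, which restricts translation, averaged 64.1 ± 7.13% in Th2, 79.1 ± 4.73% in Th1 and 88.1 ± 2.11% in naive cells, with a difference of -23.99 points in Th2 that missed the minimum. Its strongest naive peaks had a fold enrichment of 8.62 to 10.2 as the authors deposited it. Rtp4, a regulator of interferon responses in the mouse, has an annotation of 94.004 kb that overlaps Masp1, so its percent is small. The bases covered in it amounted to 0.809 ± 0.585 kb in Th2, 0 in each Th1 library and 8.16 ± 1.06 kb in naive cells. Mx1 and Mx2 encode dynamin-like GTPases in wild mice and are not functional in the reference strain. Mx2 averaged 13.2 ± 2.09% in Th2, 20.8 ± 1.60% in Th1 and 43.3 ± 4.74% in naive cells and Mx1 22.8 ± 9.97% in Th2, 27.3 ± 3.24% in Th1 and 31.9 ± 4.92% in naive cells. With transcribed pseudogenes added to the genes tested, an alternative chosen after seeing the data, Mx2 was called lower in Th2 (-30.04 points, adjusted p = 2.99e-05) and Mx1 in neither group.

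Of the genes Parp9, Parp14 and Dtx3l, the first 2 were called lower in Th2 and none in Th1. Among all genes tested 15.4% and 16.3% were. PARP9 and DTX3L form a complex that modifies histones and amplifies interferon responses, and PARP14 is an ADP-ribosyltransferase known for its role in STAT6 and IL-4 responses. Parp14 had 26.9, 32.2 and 33.2% in the Th2 libraries, 51.9, 33.4 and 40.5% in the Th1 libraries and 65.7, 63.5 and 69.2% in the naive libraries. Its Th2 libraries lay below every Th1 library, and the Th1 libraries below every naive library, with differences of -35.3 points (SE 4.54, adjusted p = 0.000323) in Th2 and -24.2 points (SE 4.54, adjusted p = 0.00234) in Th1. Parp9 averaged 52.2 ± 0.630% in Th2, 58.2 ± 2.80% in Th1 and 79.6 ± 1.74% in naive cells, and Dtx3l 78.2 ± 3.37% in Th2, 95.99 ± 3.52% in Th1 and 92.2 ± 0.801% in naive cells. The Parp9 difference was -27.3 points (SE 1.77, adjusted p = 9.50e-06) in Th2, which was called, and -21.3 points in Th1, which was not. A single peak of 26.6 to 30.6 kb lay over a part of Parp9 and reached into Dtx3l in all 9 libraries, so they do not give separate evidence. The Th2 call of Parp9 was lost at matched covered length (-2.04 points), with peaks of a −log10 q of at least 5 (-2.04 points) and with libraries centred (-19.6 points).

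The Schlafen family ranged from no mark to full coverage. Slfn1 lay fully under a peak in all 9 libraries, and Slfn2, a gene needed for T cell quiescence in the mouse, had no peak in any. Slfn5 (chromosome 11, 82951349 to 82964850) had 15.5, 26.2 and 33.8% in the Th2 libraries, 0% in each Th1 library and 100, 87.97 and 100% in the naive libraries. It was without a peak in Th1 libraries, partly covered in Th2 libraries and nearly or fully covered in naive ones, and the differences were -70.8 points (SE 5.02, adjusted p = 1.51e-05) in Th2 and -95.99 points (SE 5.02, adjusted p = 2.80e-06) in Th1. Slfn8 had 71.3, 83.2 and 74.3% in the Th2 libraries, 88.04, 80.4 and 74.2% in the Th1 libraries and 98.95, 94.3 and 99.1% in the naive libraries, with every polarised library below the naive ones and differences of -21.2 points (SE 4.16, adjusted p = 0.00304) and -16.6 points (SE 4.16, adjusted p = 0.00987) in Th2 and Th1, which were not called. Over the first 5 kb the Slfn5 difference in Th2 was -39.8 points. The strongest Slfn8 peak in naive libraries had a deposited fold of 7.40 to 8.38, within the top 1.05% of its own list.

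Of the remaining genes, Rnf213 and Xaf1 were called lower in both comparisons. Rnf213 encodes a giant ubiquitin ligase and is 97.5 kb long (chromosome 11, 119389950 to 119487418). It had 9.01, 9.94 and 10.01% in the Th2 libraries, 4.01, 5.32 and 3.53% in the Th1 libraries and 49.4, 45.4 and 54.4% in the naive libraries. The covered bases amounted to 9.41 ± 0.545 kb in Th2, 4.18 ± 0.903 kb in Th1 and 48.5 ± 4.37 kb in naive cells, and the differences were -40.1 points (SE 2.07, adjusted p = 2.93e-06) in Th2 and -45.4 points (SE 2.07, adjusted p = 1.37e-06) in Th1. At matched covered length they were -19.5 and -24.3 points, which were not called, and with peaks of a −log10 q of at least 5 -26.4 and -26.4 points. Xaf1, whose product binds the apoptosis inhibitor XIAP, had 21.5, 27.2 and 25.3% in the Th2 libraries, 31.2, 32.6 and 31.997% in the Th1 libraries and 64.2, 68.8 and 67.5% in the naive libraries. The polarised libraries of Rnf213 and Xaf1 were far below the naive ones, and the Xaf1 differences were -42.2 points (SE 1.98, adjusted p = 1.86e-06) in Th2 and -34.9 points (SE 1.98, adjusted p = 4.32e-06) in Th1. The Xaf1 difference in Th2 was -66.9 points with peaks of a −log10 q of at least 5. Sp100, a component of nuclear bodies, averaged 58.7 ± 3.78% in Th2, 68.1 ± 5.07% in Th1 and 74.99 ± 0.852% in naive cells, and Trim30a, a restrainer of Toll-like receptor signalling, 58.2 ± 0.850% in Th2, 63.8 ± 2.14% in Th1 and 71.5 ± 3.20% in naive cells. Ifi35 averaged 83.3 ± 0.647% in Th2, 88.4 ± 5.72% in Th1 and 91.8 ± 1.23% in naive cells and Ifi27l2a, which overlaps Ifi27, 90.5 ± 16.4% in Th2, 96.3 ± 6.35% in Th1 and 100% in naive cells. Ifi44 had 0% in every Th2 and Th1 library, against 4.53, 4.28 and 10.5% in the naive libraries. Sp100, Trim30a, Ifi35, Ifi27l2a and Ifi44 did not reach the minimum difference in either comparison.

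**Figure D3:**
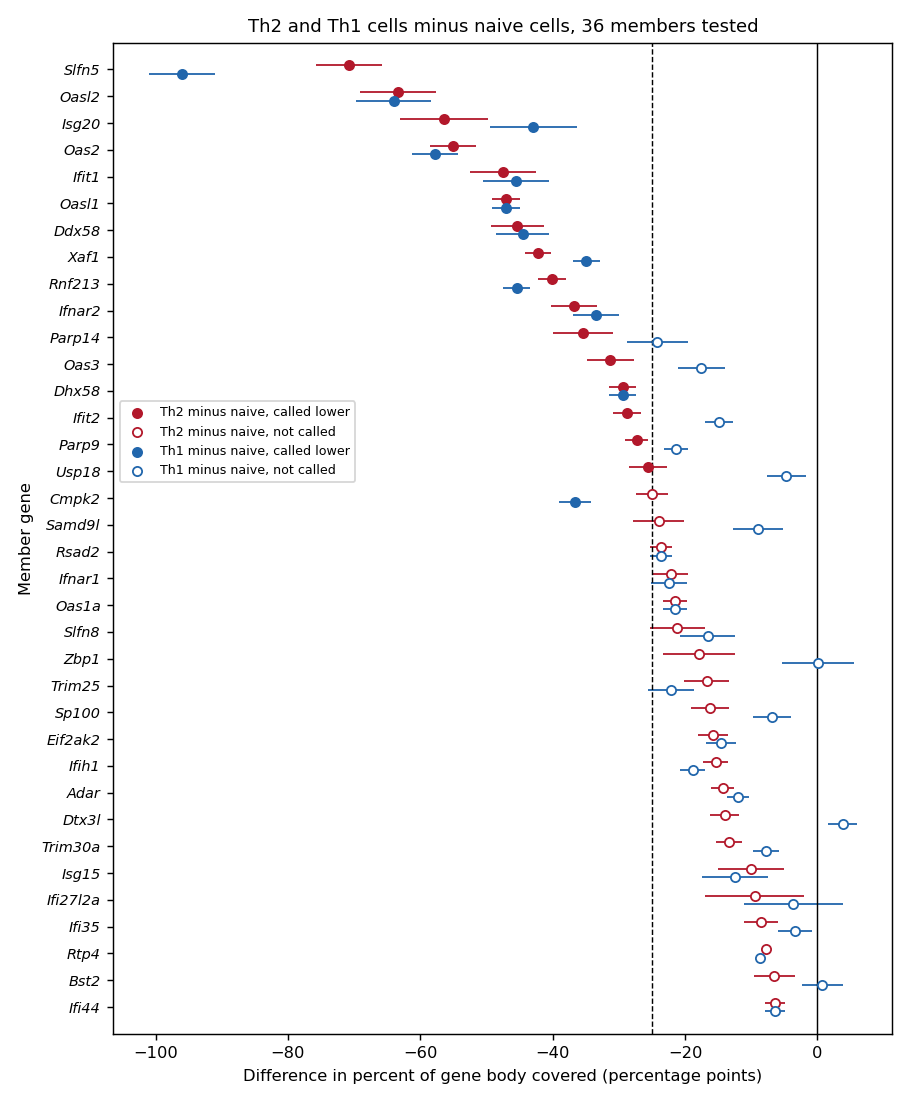
Difference in percent of the gene body covered (percentage points, ± SE from limma) of Th2 minus naive (red) and Th1 minus naive (blue) for the 36 genes tested; filled points were called lower and the dashed line marks -25 points. Slfn5, Oasl2, Isg20 and Oas2 lie farthest to the left in Th2, and no filled point lies right of 0.

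In Th2 against Th1 cells 1 gene was called higher and 0 lower, where 2.08% of all genes tested were called higher and 1.56% lower. Reporter strain and culture additions also differed between these groups and cannot be told apart from cell type. By limma's unadjusted p, 15 of the 36 genes lay under 0.05, where 3158 of all 11600 genes tested did. The gene called was Slfn5, partly covered in Th2 libraries and without a peak in Th1 libraries, with a difference of 25.2 points (SE 5.02, adjusted p = 0.0141). Over the first 5 kb its difference was 54.9 points. Its call was lost with peaks of a −log10 q of at least 5 (0 points), at matched covered length (8.53 points), with libraries centred (24.6 points), and without the second or the third Th2 library (24.7 and 20.9 points). Below the 25-point minimum, Usp18 differed by -20.9 points (SE 2.91, adjusted p = 0.00293), Dtx3l by -17.8 points (SE 2.19, adjusted p = 0.00159) and Ifit2 by -13.9 points (SE 2.07, adjusted p = 0.00395), each with all Th2 libraries under all Th1 libraries. Samd9l differed by -15.04 points (SE 3.83, adjusted p = 0.0370), Oas3 by -13.7 points (SE 3.58, adjusted p = 0.0403) and Xaf1 by -7.28 points (SE 1.98, adjusted p = 0.0481), likewise without overlap. Cmpk2 had the opposite sign, with a difference of 11.6 points (SE 2.44, adjusted p = 0.0174). Of the 36 genes, Th2 libraries all lay below Th1 libraries for 11 and above them for 4, where 13.9% and 16.3% of all genes tested did so. With peaks of a −log10 q of at least 5, Isg15, Samd9l, Usp18 and Xaf1 were called lower in Th2 than in Th1, and at matched covered length Isg20, Usp18 and Zbp1 were.

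**Figure D4:**
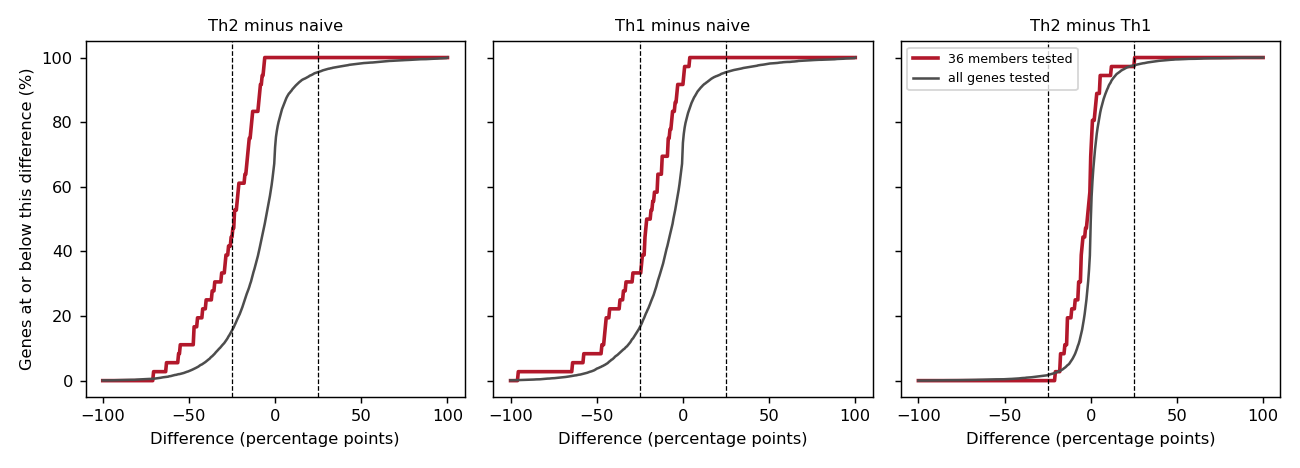
Cumulative share (%) of genes at or below a given difference in percent covered (percentage points), for the 36 listed genes tested (red) and all 11600 genes tested (grey), in Th2 minus naive, Th1 minus naive and Th2 minus Th1; dashed lines mark 25 points either way. The red curve lies left of the grey one in the comparisons with naive cells and close to it in Th2 minus Th1.

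Coverage was lower in polarised cells both at the start of the genes and further in. For the 31 listed genes with a known strand, the bin from 0.5 to 1 kb after the start was covered to 60.5 ± 0.547% in Th2, 61.1 ± 0.684% in Th1 and 84.2 ± 1.80% in naive libraries. Over all protein-coding genes with a strand the same bin held 45.9 ± 0.685%, 45.5 ± 0.482% and 45.4 ± 0.176%, in Th2, Th1 and naive libraries, closer together than the SD of the Th2 libraries. At 5 to 5.5 kb, with 28 genes long enough, the listed genes had 49.4 ± 3.45% in Th2, 47.4 ± 0.792% in Th1 and 75.3 ± 0.262% in naive libraries, and all genes 40.4 ± 0.664%, 39.9 ± 1.14% and 45.8 ± 0.344%. When each gene was split at its middle, the median coverage of the part nearer the start was 57.5% in Th2, 75.2% in Th1 and 97.8% in naive cells. In the part nearer the end it was 8.26%, 1.35% and 62.5%. Each median is the value of a single gene, and the order of Th2 and Th1 varied between genes. In the part nearer the end, Dtx3l averaged 56.4% in Th2 and 92.0% in Th1, and Trim25 66.5% and 55.8%. No such values were computed over all genes. Xaf1 is an example of lower coverage in polarised cells. The part of it nearer the start was covered to 49.4 ± 5.77% in Th2, 62.8 ± 2.32% in Th1 and 100% in naive cells, and the part nearer the end to 0%, 1.10 ± 1.91% and 33.7 ± 4.73%. No test was run on these profiles.

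**Figure D5:**
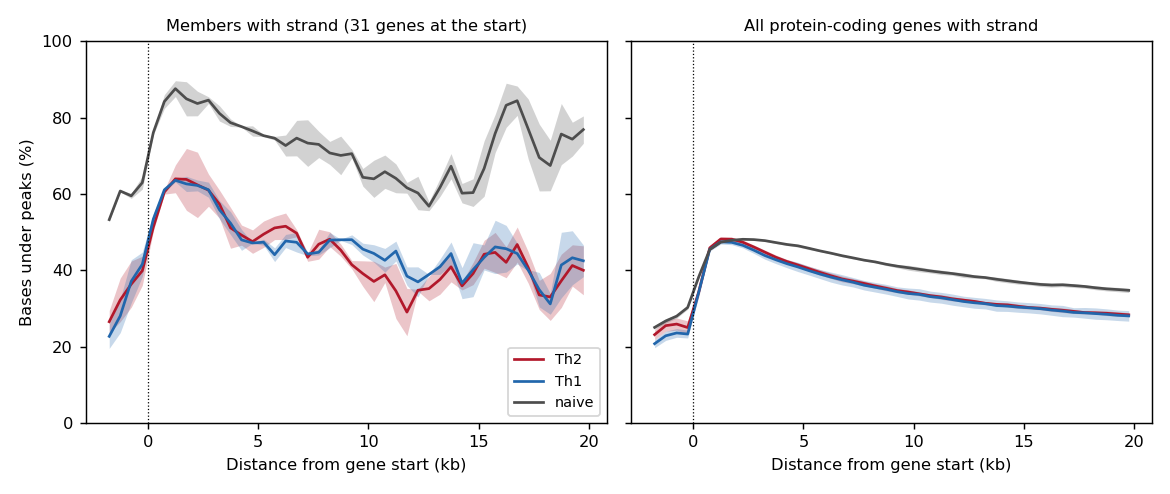
Share of bases under peaks (%) by distance from the gene start (kb, in bins of 0.5 kb) for listed genes with a known strand (left, 31 genes at the start and fewer farther in) and for all protein-coding genes with a strand (right). Lines are means over 3 libraries and shading is the mean ± SD of the libraries. On the left both the Th2 and the Th1 line lie below the naive line in every bin, and on the right all 3 lines meet just after the start.

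Other genes of the pathway, 82 in a list of interferon genes, signalling components, upstream sensors, negative regulators, genes of ISG15 conjugation and further responsive genes, held calls in both directions. Of 54 that could be tested, 2 were called higher and 12 lower in Th2 against naive cells, 5 higher and 11 lower in Th1 against naive cells, and 2 higher and 4 lower in Th2 against Th1 cells. Over all genes tested the shares were 4.26% higher and 15.4% lower in Th2 and 4.38% higher and 16.3% lower in Th1 against naive cells, and 2.08% higher and 1.56% lower in Th2 against Th1 cells. The list's median differences were -5.59, -1.81 and -1.28 points, against -5.50, -5.54 and 0.0181 points over all genes. Without any 1 of the Th2 or naive libraries 1 gene instead of 2 was called higher in Th2 against naive cells, and without any 1 of the Th1 or naive libraries 1 instead of 2 in Th2 against Th1 cells. Of 17 type I interferon genes, 16 had no peak in any library. Ifnk, the exception, overlaps Mob3b and averaged 61.1 ± 33.7% in Th2, 5.97 ± 10.3% in Th1 and 100% in naive cells, a difference of -94.03 points (SE 14.99, adjusted p = 0.000998) in Th1 from naive cells and 55.1 points (SE 14.99, adjusted p = 0.0478) in Th2 from Th1 cells.

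In the signalling chain, Tyk2 and Irf7 were called lower in both polarised groups. Irf7, the factor that amplifies interferon production, had 0, 13.6 and 25.5% in the Th2 libraries, 46.3, 6.45 and 0% in the Th1 libraries and 100% in each naive library. Tyk2 averaged 13.6 ± 0.874% in Th2, 16.5 ± 5.39% in Th1 and 68.1 ± 7.39% in naive cells. Differences from naive cells were -86.97 points (SE 11.99, adjusted p = 0.000478) in Th2 and -82.4 points (SE 11.99, adjusted p = 0.000612) in Th1 for Irf7, and -54.5 points (SE 4.02, adjusted p = 1.86e-05) and -51.6 points (SE 4.02, adjusted p = 2.18e-05) for Tyk2. Stat2 averaged 43.1 ± 4.37% in Th2, 61.6 ± 7.50% in Th1 and 66.1 ± 5.08% in naive cells. Irf9 averaged 94.6 ± 8.04% in Th2, 99.2 ± 1.33% in Th1 and 96.05 ± 1.97% in naive cells, and Jak1 91.3 ± 0.169% in Th2, 91.5 ± 1.41% in Th1 and 98.9 ± 0.720% in naive cells. None of these last 3 genes was called. Of 5 negative regulators tested with limma (Socs1, Ptpn1, Ptpn2, Ptpn11 and Pias1) 0 were called in each comparison, and the unadjusted p was under 0.05 for 3 in Th2 and 4 in Th1 against naive cells and for 0 in Th2 against Th1 cells. Of the genes for the ISG15-conjugating enzymes Uba7, Ube2l6 and Herc6, 0 were called in each comparison. Their unadjusted p was under 0.05 for 2 in Th2 and 1 in Th1 against naive cells and for 1 in Th2 against Th1 cells. Among all 11600 genes tested, the unadjusted p was under 0.05 for 7415 in Th2 and 7395 in Th1 against naive cells. In Th2 against Th1 cells it was for 3158.

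Upstream of interferon, the RNA receptor gene Tlr7 averaged 4.49 ± 3.16% in Th2, 5.68 ± 2.10% in Th1 and 66.4 ± 2.26% in naive cells. The kinase gene Tbk1 averaged 21.6 ± 0.657% in Th2, 22.3 ± 2.21% in Th1 and 53.1 ± 4.28% in naive cells, and Ikbke 46.5 ± 5.30% in Th2, 37.4 ± 6.46% in Th1 and 86.4 ± 2.25% in naive cells. All 3 were called lower in both polarised groups. Among further responsive genes, Ifi203, Lgals9, Tor3a and Parp12 were called lower in both groups, with differences of -59.1, -33.7, -32.1 and -27.4 points in Th2 and -52.5, -35.9, -65.3 and -27.4 points in Th1. Parp12 had peaks in naive libraries only and entered the genes tested through them alone. Helz2, Nmi and Phf11b were called lower in Th2 only (-40.3, -34.8 and -29.3 points) and Parp10 in Th1 only (-32.5 points). Tor3a was also called higher in Th2 than in Th1, with a difference of 33.2 points (SE 4.56, adjusted p = 0.00272).

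Genes called higher in a polarised group than in naive cells were Ifitm1, Ifitm2, Ifitm3, Gbp2, Gbp3 and Ifi30. Ifitm1, Ifitm2 and Ifitm3 encode membrane proteins that block virus entry. Ifitm3 had 0% in each Th2 library, 100, 100 and 77.3% in the Th1 libraries and 0% in each naive library, and Ifitm1 had 0% in each Th2 library, 62.1, 41.02 and 20.1% in the Th1 libraries and 0% in each naive library. Both were at 0 in all Th2 and naive libraries, and both were called higher in Th1 than in naive cells and lower in Th2 than in Th1 cells. They entered the genes tested only through their Th1 libraries, so a difference was built into their entry. Ifitm2 averaged 31.04 ± 7.78% in Th2, 50.6 ± 22.1% in Th1 and 0% in naive cells and was called higher in both polarised groups. It entered the genes tested through its polarised libraries alone, so a difference from naive cells was built into its entry too. Gbp2 and Gbp3 encode GTPases that are classic targets of interferon gamma. Gbp2 averaged 23.5 ± 2.14% in Th2, 64.9 ± 3.47% in Th1 and 37.6 ± 6.13% in naive cells, and Gbp3 27.6 ± 3.86% in Th2, 88.1 ± 0.776% in Th1 and 18.2 ± 2.86% in naive cells. Both were called higher in Th1 than in naive cells, with differences of 27.3 points (SE 3.33, adjusted p = 0.000242) and 69.9 points (SE 2.38, adjusted p = 3.13e-07). Both were called lower in Th2 than in Th1 cells, with differences of -41.4 points (SE 3.33, adjusted p = 0.000183) and -60.4 points (SE 2.38, adjusted p = 4.97e-06). Ifi30, a lysosomal thiol reductase, was called higher in Th2 cells, with a difference of 26.4 points (SE 6.96, adjusted p = 0.0124), and not in Th1 cells, with 22.4 points.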

How the data were processed

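H3K79me2 was measured by ChIP-seq in 9 libraries, 3 each of Th2, Th1 and naive CD4 T cells; the 9 input libraries carry no peak list and were not used. Bowtie2, SAMtools, Picard and MACS2 with mouse build mm10 are named per the submitters' processing notes, without versions, settings or whether inputs entered peak calling. The deposited broad peak lists, 1 per library, give each peak's position, a score, a fold enrichment (ratio) and −log10 p and q values from the authors' peak caller. They hold no read counts, so depth is unknown and no interval from counts can be given; low depth can shorten or remove weak peaks.

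Peaks of a library were merged, and the percent of each gene body covered was computed with Python 3.11.15, pandas 2.3.3 and numpy 2.4.6 for 21631 protein-coding genes on chromosomes 1 to 19 and X and 476 transcribed pseudogenes of RefSeq on GRCm38.p6, the assembly of mm10. The 11600 protein-coding genes that did not have the same value in all libraries were fitted with limma 3.58.1 (R 4.3.3; lmFit, eBayes with a trend; 1 fit of 9 libraries, 6 residual degrees of freedom), with Benjamini-Hochberg adjustment over all of them, and the script was tested on simulated data. Calls needed an adjusted p under 0.05 together with at least 25 points of difference. Alternatives used only peaks with a −log10 q of at least 5, matched covered length, the replicate number as a block, single libraries left out, peaks at most 1000 bases apart joined, bases no other gene overlaps, the first 5 kb, centred libraries, no filter, a filter of at least 10% in at least 3 libraries, and an arcsine scale; transcribed pseudogenes were added after seeing the data. All listed genes could be named. Of the other pathway genes, those called in any comparison were named, and Stat2, Irf9, Irf7, Jak1 and Tyk2 whatever their values. The negative regulators and the ISG15-conjugating enzymes were named after their values were seen. The genes and lists were chosen with earlier results of these data known, and no test over the list was made. A gene of the pathway list and a cell type marker are not reported here and were left out of the counts of their lists.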

Additional observations from a re-analysis of the deposited data

How the results depend on the processing

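The count of listed genes called lower was 16 in Th2 against naive cells, with 11 (libraries centred) to 22 (peaks of a −log10 q of at least 5) over the alternatives, and 12 in Th1 against naive cells, with 10 (first 5 kb) to 15 (peaks of a −log10 q of at least 5). With peaks of a −log10 q of at least 5, 17.4% of all genes tested were called lower in Th2 and 17.3% in Th1 against naive cells. No alternative called a listed gene higher in either. In Th2 against Th1 cells the 1 gene called higher became 0 with peaks of a −log10 q of at least 5, at matched covered length and with libraries centred, and 0 to 1 when single libraries were left out. The 0 called lower there became 4 with peaks of a −log10 q of at least 5 and 3 at matched covered length. Under these settings 1.75% and 2.07% of all genes tested were called lower in Th2 than in Th1. The cause of these changes was not tested. Leaving out single libraries gave 16 to 18 genes called lower in Th2 and 12 to 14 in Th1 against naive cells. Genes gained in Th2 were Cmpk2 without the first naive or the second Th2 library, Rsad2 and Samd9l without the second naive library and Samd9l without the third Th2 library, and in Th1 Parp14 and Rsad2 without the second naive library and Parp14 and Trim25 without the first Th1 library. Of 565 values of the 29 calls of single genes under alternatives, 544 stayed called, 21 lost the call and 0 reversed. Oasl2 was at 0 in every library, and so not tested, with peaks of a −log10 q of at least 5 and at matched covered length, and Ifit1 had no value over bases no other gene overlaps. Over the first 5 kb, Dhx58, Oas2, Parp14, Parp9 and Usp18 had no value because their strand was not known, and Ifnar2 was not tested because it was covered to 100% in every library.

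Over all genes, calls of lower coverage numbered 1781 in Th2 and 1895 in Th1 against naive cells, and 918 and 1069 over the first 5 kb, 1118 and 1175 with libraries centred, and 1095 and 1032 at matched covered length. Calls of higher coverage numbered 494 in Th2 and 508 in Th1, and 756 and 817 at matched covered length. In Th2 against Th1 cells 241 were higher, and 144 with peaks of a −log10 q of at least 5.

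Each library's deviations from its group mean, gene by gene, were correlated with those of libraries of the other groups. These correlations were -0.0745 to 0.00147 over the 9 pairs with the same replicate number. They were -0.0262 to 0.0697 for pairs with other numbers, so the numbers were not taken to pair libraries. With the replicate number as a block 16 listed genes were called lower in Th2 and 12 in Th1 against naive cells, and 1 higher and 0 lower in Th2 against Th1 cells. Peak lists give no depth, so a gene without a peak may still carry the mark below the caller's threshold.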
